A study of Mus musculus with 20 samples.

Results

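The microRNAs miR-143 and miR-145 were followed through chemically induced skin tumours of the mouse. They were taken as the entries of the miRNA class whose names begin mmu-miR-143- or mmu-miR-145-, both arms, which gave 4 of the 1137 mature miRNAs in the deposited table: mmu-miR-145-5p, mmu-miR-145-3p, mmu-miR-143-3p and mmu-miR-143-5p, written without the species prefix from here on. All 4 passed the filter on low counts, and 3 of them, all but miR-143-5p, had a mean of 50 CPM or more (CPM are counts relative to the size of the library). The samples are skin biopsies of the inbred FVB/N strain in 4 groups of 5 libraries: acetone-treated healthy skin, and hyperplastic skin, benign papillomas and cutaneous squamous cell carcinoma (cSCC) after DMBA, a mutagen, and PMA, a tumour-promoting phorbol ester. Age is not stated. No group had the chemicals without a lesion, so that the effects of chemical and lesion cannot be told apart against healthy skin. Whether the 5 biopsies of a group are 5 animals is not stated, and the p-values therefore describe the spread between biopsies, part of which may be technical.

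miR-143 and miR-145 are cut from a shared primary transcript. Serum response factor and its partner myocardin drive that transcript in smooth muscle, where both miRNAs are among the most abundant and favour the contractile over the growing state. miR-145 restrains Klf4 and Klf5, factors that oppose the contractile programme, and miR-143 restrains Elk1, a factor that competes with myocardin. Pericytes and fibroblasts carry the pair as well. In skin it is expected mainly in vessel walls, in the muscles that raise hairs and in dermal mesenchyme, and far less in epithelium. Of the strands of each hairpin, miR-145-5p and miR-143-3p are the ones mainly loaded into Argonaute, and the opposite arms are mostly degraded.

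In the coordinates of the table (mouse build mm9), miR-145-5p lies on chromosome 18 at 61807519 to 61807543 and miR-145-3p at 61807480 to 61807503. miR-143-3p lies at 61808852 to 61808874 and miR-143-5p at 61808886 to 61808908. The starts of miR-145-5p and miR-143-3p are 1333 bases apart, and the 4 members can share a transcript, so that their changes need not be independent. RefSeq places the miRNA genes Mir143 and Mir145a inside the long non-coding RNA gene Carmn, and GENCODE puts all 3 on the minus strand. RefSeq also lists Mir145b elsewhere on the same chromosome. How reads that match both miR-145 genes would have been counted is not given in the sources used here, so the miR-145 values are uncertain to that extent.

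The libraries held 1060615 to 6904298 mature miRNA counts. Healthy skin had 2884177 to 4921719, hyperplastic skin 3142228 to 6904298, papillomas 1060615 to 2370313 and cSCC 1614803 to 2903657. CPM values use edgeR's TMM factors, and calls rest on edgeR's quasi-likelihood test with Benjamini-Hochberg adjustment over all 850 miRNAs tested (adjusted p under 0.05). Tumour fold changes depend on which miRNAs set the scale. The fit of all 850 miRNAs minus a fit of the 293 miRNAs of at least 50 CPM gave a median log2 shift of -0.64 in papillomas and -0.71 in cSCC against healthy skin. The shift was -0.56 in papillomas and -0.63 in cSCC against hyperplastic skin, -0.08 between hyperplastic and healthy skin and -0.07 between the tumours. The number of miRNAs called in each direction moved as well. Papillomas had 176 lower and 204 higher than in healthy skin, and cSCC 181 lower and 223 higher. With factors from the abundant miRNAs these became 73 lower and 426 higher in papillomas, and 102 lower and 451 higher in cSCC. Both fits are therefore given for the 3 members that entered both. The 11 miRNAs taken as defining markers of endothelium, mesenchyme, striated muscle, keratinocytes, leukocytes and red cells were detected in every library, with 0 of 11 at 0 counts anywhere.

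In healthy skin miR-145-5p was the third to sixth most abundant mature miRNA of a library, at 41760 to 86880 CPM (64590 ± 19900, SD, n = 5). It made up 5.14% ± 1.23 of mature miRNA counts. miR-143-3p ranked 12 to 21 there, with 20850 ± 5510 CPM (SD, n = 5) and 1.66% ± 0.286 of the counts. The opposite arms were rare: miR-145-3p had 89.08 ± 22.3 CPM and miR-143-5p 35.52 ± 15.4 CPM in healthy skin (SD, n = 5 each), from as few as 49 counts in a library for miR-143-5p. Across the 4 groups all 4 members differed, where 56% of the 850 miRNAs did. Their adjusted p was 4.87e-07 for miR-145-5p, 0.000865 for miR-145-3p, 1.32e-06 for miR-143-3p and 0.00379 for miR-143-5p (edgeR quasi-likelihood F test).

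**Figure D1:**
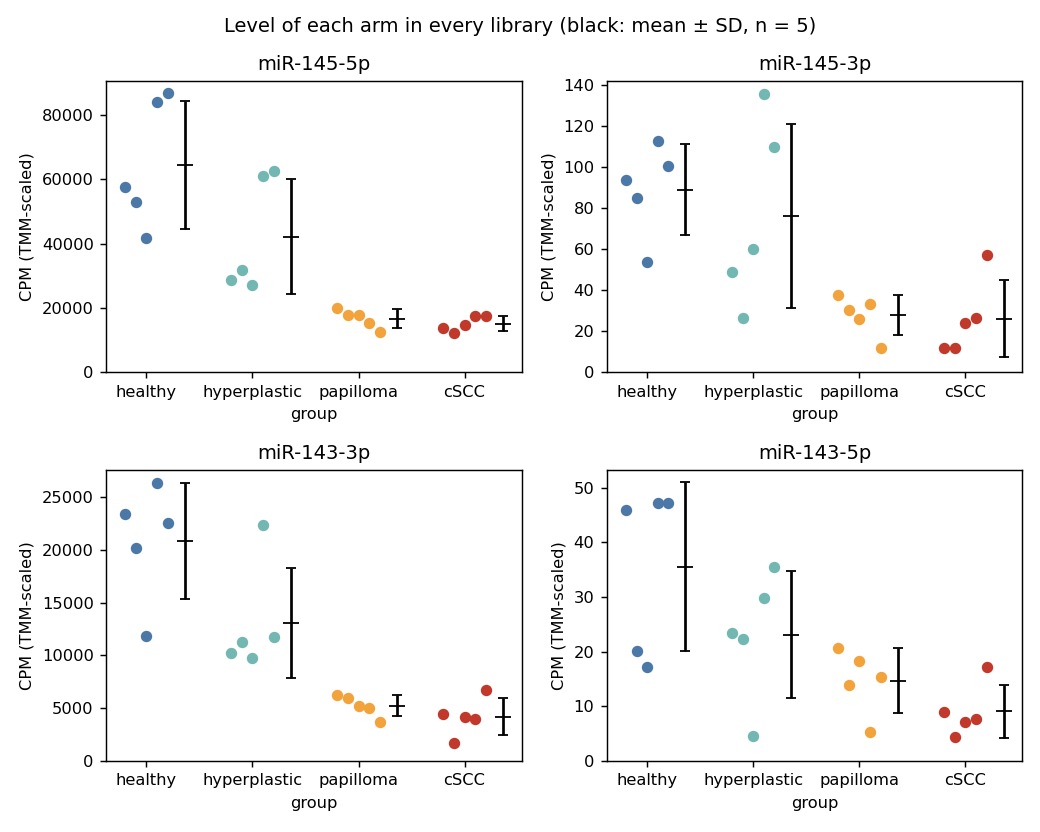
Level of each arm in CPM (vertical axes, from 0) in each of the 5 libraries of every group (points), with the group mean ± SD in black. For miR-145-5p and miR-143-3p all 10 tumour libraries lie below all 5 healthy libraries, and the hyperplastic libraries spread between 26990 and 62540 CPM for miR-145-5p.

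All 4 members fell in the benign tumour relative to healthy skin. For miR-145-5p the 5 papillomas had 19850, 17800, 17890, 15200 and 12530 CPM, against 57480, 52840, 41760, 83970 and 86880 CPM in healthy skin. Every papilloma lay below every healthy library, and the spread among papillomas was small, at 17% of their mean, against 30.8% in healthy skin. The level was 3.88-fold lower (log2 fold change -1.95 ± 0.27 SE, adjusted p = 1.78e-05), and -1.29 ± 0.21 among the abundant miRNAs (adjusted p = 0.000104). As a share of mature miRNA counts, miR-145-5p made up 2.09% ± 0.208 in papillomas and 5.14% ± 1.23 in healthy biopsies (SD, n = 5 each). Such a share uses no TMM factor but depends on the levels of the other miRNAs.

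miR-143-3p, the more active arm of its hairpin, fell alike. It stood at 6205, 5995, 5152, 5005 and 3682 CPM in papillomas and at 23350, 20130, 11830, 26360 and 22570 CPM in healthy skin. Again the groups did not overlap, and the level was 4.003-fold lower (-2.001 ± 0.31, adjusted p = 4.14e-05; -1.34 ± 0.26 among abundant miRNAs, adjusted p = 0.000359). Of the opposite arms, miR-145-3p averaged 27.70 ± 9.80 CPM in papillomas and 89.08 ± 22.3 CPM in healthy skin, with no overlap (-1.68 ± 0.43, adjusted p = 0.00369; -1.05 among abundant miRNAs, adjusted p = 0.0363). That call ended with library sizes that left out the 5 most abundant miRNAs (-0.75, adjusted p = 0.0945). miR-143-5p, at 14.68 ± 5.91 CPM in papillomas and 35.52 ± 15.4 CPM in healthy skin, fell by 1.28 ± 0.45 on the log2 scale (adjusted p = 0.0237), with papillomas 1 and 4 inside the healthy range. Its call ended with scaling factors from the abundant miRNAs (-0.59, adjusted p = 0.251), where its value moved by over 1.5 times. Of all miRNAs tested, 20.7% were called lower in papillomas, and 20.5% of the abundant ones. How many miRNAs had no overlap between groups was not counted, in this comparison or those below. The papillomas were also the shallower libraries, without overlap in depth, and the part of depth in these falls was not tested.

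The malignant tumour, cSCC, also had lower levels of all 4 members than healthy skin. miR-145-5p had 13750, 12200, 14630, 17400 and 17570 CPM in cSCC, against the 41760 to 86880 CPM of healthy skin. No cSCC reached the lowest healthy library. The level was 4.27-fold lower (-2.10 ± 0.27, adjusted p = 1.08e-06), and -1.36 ± 0.21 among abundant miRNAs (adjusted p = 1.76e-05). Its rank within a library was 8 to 11 in cSCC and 3 to 6 in healthy skin.

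miR-143-3p had 4407, 1700, 4185, 3953 and 6741 CPM in cSCC, against 11830 to 26360 CPM in healthy skin. The cSCC libraries spread widely, from cSCC 2 at the bottom to cSCC 6 at the top, and none overlapped with healthy skin. The level was 4.97-fold lower (-2.31 ± 0.31, adjusted p = 1.92e-06; -1.59 ± 0.26 among abundant miRNAs, adjusted p = 3.42e-05). miR-145-3p stood at 26.12 ± 18.7 CPM in cSCC and 89.08 ± 22.3 CPM in healthy skin (-1.78 ± 0.43, adjusted p = 0.0016; -1.05 among abundant miRNAs, adjusted p = 0.0301). cSCC 6, at 57.19 CPM, lay inside the healthy range for this arm. miR-143-5p, with 9.05 ± 4.8 CPM in cSCC and 35.52 ± 15.4 CPM in healthy skin, fell (-1.98 ± 0.46, adjusted p = 0.00109), although the 5 cSCC libraries held no more than 11 to 35 of its counts. The groups did not overlap, but cSCC 6, at 17.11 CPM, lay just under the lowest healthy library, at 17.21 CPM. Of all miRNAs 21.3% were called lower in cSCC, and 25.9% of the abundant ones. This comparison and that of papillomas share the 5 healthy libraries. The cSCC libraries were shallower as well, with 1614803 to 2903657 mature miRNA counts against 2884177 to 4921719. Only cSCC 3 lay above the shallowest healthy library, and the part of depth was not tested.

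**Figure D2:**
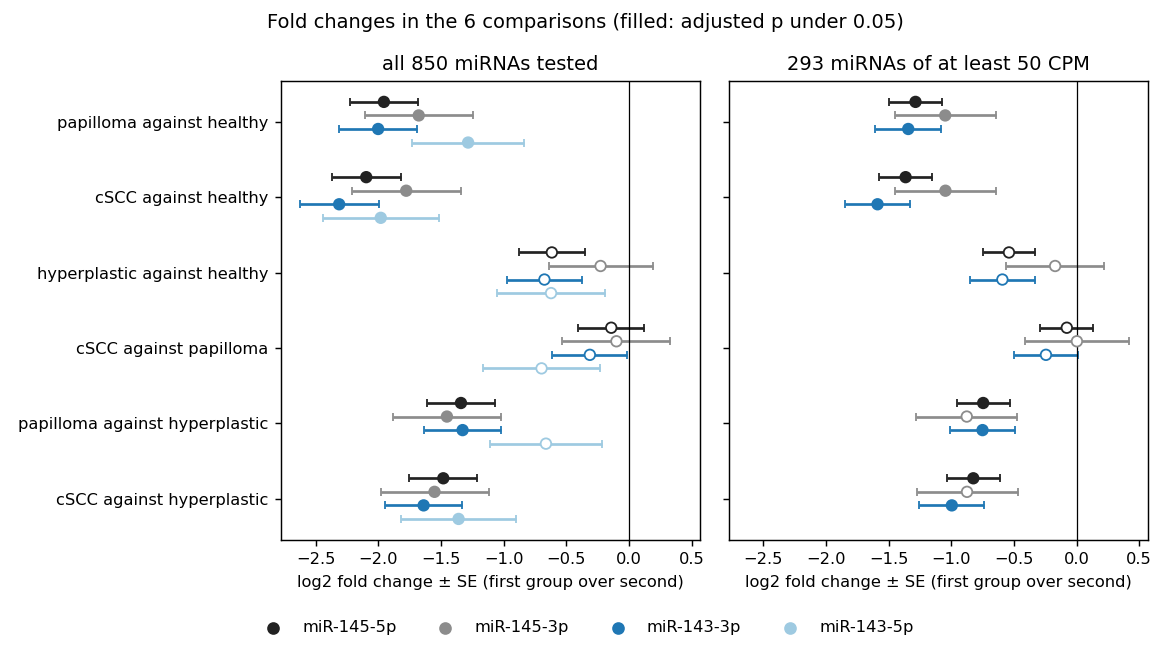
Log2 fold changes ± SE (horizontal axes, first named group over the second) of each arm in the 6 comparisons, from the fit of all 850 miRNAs (left) and of the 293 of at least 50 CPM (right, without miR-143-5p). Filled points passed an adjusted p of 0.05. In both fits miR-145-5p and miR-143-3p passed in the 4 comparisons of a tumour with skin that held no tumour and in neither of the other 2.

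In hyperplastic skin, treated but without a tumour, no member passed the test against healthy skin. The mean of miR-145-5p was 42180 ± 18000 CPM in the hyperplastic group and 64590 ± 19900 CPM in the healthy group, with a log2 fold change of -0.61 ± 0.27 (adjusted p = 0.506). The interval of that difference (95%, not adjusted) ran from -1.16 to -0.07. miR-143-3p averaged 13070 ± 5240 CPM in the hyperplastic group and 20850 ± 5510 CPM in the healthy one (-0.67 ± 0.30, adjusted p = 0.506, 95% interval -1.29 to -0.06). The rare arms had values of -0.23 ± 0.42 for miR-145-3p and -0.62 ± 0.43 for miR-143-5p (adjusted p = 0.913 and 0.676). No miRNA at all was called lower here (0%, with 0 in DESeq2 as well). In edgeR 75 of 850 were past an unadjusted threshold of 0.05, in either direction, both main arms among them.

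The hyperplastic libraries fell into unlike sets of values. Hyperplastic 7 and 8 held 61060 and 62540 CPM of miR-145-5p, within the healthy range, whereas hyperplastic 1, 2 and 5 held 28550, 31730 and 26990 CPM, below every healthy library and above every tumour. For miR-143-3p only hyperplastic 7, at 22330 CPM, lay in the healthy range, and the other 4 stood at 9790 to 11780 CPM. Hyperplastic 7 and 8 also had the group's highest levels of striated muscle miR-133a-3p (18380 and 16970 CPM, against 3950 to 7566 in the other 3) and of mesenchymal miR-199a-3p (8148 and 10600 CPM, against 4399 to 5177). Endothelial miR-126-3p did not follow this split, with 18970 CPM in hyperplastic 7 but 7180 in hyperplastic 8, against 6265 to 8250 in the other 3. Keratinocyte miR-205-5p was also highest in hyperplastic 7 and 8, by less (117700 and 106700 CPM, against 100300 to 105400). These 2 libraries had the group's lowest TMM factors (0.7668 and 0.8148, against 0.9842 to 1.103). A lower factor raises every CPM value of a library. On the first principal component of all miRNAs hyperplastic 7 and 8 lay at -22.60 and -20.15 and the other 3 at -11.65 to -7.51. The healthy libraries lay at -20.32 to -10.86, a range that took in hyperplastic 8 and also hyperplastic 5, but not hyperplastic 7. The part of these differences in the hyperplastic values was not tested.

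Set against hyperplastic skin, which like the tumours came from treated mice, both main arms were lower in either tumour. Libraries of both tumours were also shallower than those of hyperplastic skin, without overlap, and the part of depth was not tested. In papillomas miR-145-5p stood at 12530 to 19850 CPM, against 26990 to 62540 CPM in hyperplastic skin, with no overlap (-1.34 ± 0.27, adjusted p = 0.000798; -0.75 ± 0.21 among abundant miRNAs, adjusted p = 0.0104). miR-143-3p stood at 3682 to 6205 CPM in papillomas and 9790 to 22330 CPM in hyperplastic skin (-1.33 ± 0.30, adjusted p = 0.00245; -0.75 ± 0.26, adjusted p = 0.0334). Of the 850 miRNAs 17.1% were called lower, and 14% of the abundant ones. miR-145-3p was called lower in the fit of all miRNAs (-1.45 ± 0.43, adjusted p = 0.0117). That call ended among the abundant ones (-0.88, adjusted p = 0.115) and without hyperplastic 7 (-1.11, adjusted p = 0.0606). miR-143-5p did not pass (-0.66 ± 0.45, adjusted p = 0.249).

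In cSCC miR-145-5p stood at 12200 to 17570 CPM, against 26990 to 62540 CPM in hyperplastic skin (-1.48 ± 0.27, adjusted p = 0.000107; -0.82 ± 0.21 among abundant miRNAs, adjusted p = 0.00255). For miR-143-3p the values were 1700 to 6741 CPM in cSCC and 9790 to 22330 CPM in hyperplastic skin (-1.64 ± 0.31, adjusted p = 0.000144; -0.996 ± 0.26, adjusted p = 0.00297). Neither arm overlapped between these groups. Here 20.5% of the 850 miRNAs were called lower, and 23.2% of the abundant ones. miR-145-3p fell in the fit of all miRNAs (-1.55 ± 0.43, adjusted p = 0.00519), a call that ended among abundant ones (-0.87, adjusted p = 0.0757). The fall of miR-143-5p (-1.36 ± 0.46, adjusted p = 0.0174) ended without hyperplastic 7 (-1.12, adjusted p = 0.0663), hyperplastic 8 (-1.07, 0.0724), cSCC 2 (-1.12, 0.0648) or cSCC 3 (-1.21, 0.0519). It also ended with factors from the abundant miRNAs (-0.72, adjusted p = 0.177). Both comparisons share the 5 hyperplastic libraries.

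Between the tumours, cSCC against papilloma, no member passed, where 4.71% of miRNAs were called lower. miR-145-5p averaged 15110 ± 2340 CPM in cSCC and 16660 ± 2840 CPM in papillomas (SD, n = 5 each), and the 4 highest cSCC values lay inside the papilloma range. Its log2 fold change of -0.14 ± 0.26 (adjusted p = 0.826) had a 95% interval of -0.68 to 0.40. miR-143-3p averaged 4197 ± 1790 CPM in cSCC and 5208 ± 998 CPM in papillomas (-0.31 ± 0.30, adjusted p = 0.608, 95% interval -0.93 to 0.31). For miR-145-3p and miR-143-5p the fold changes were -0.10 ± 0.43 and -0.70 ± 0.47 (adjusted p = 0.94 and 0.428), with intervals of -0.99 to 0.79 and -1.66 to 0.26. The sign for miR-145-5p turned without papilloma 1 (0.022) or papilloma 4 (0.043), and that for miR-145-3p among abundant miRNAs (0.0021). In order of mean level both main arms thus ran from healthy through hyperplastic skin and papilloma to cSCC. Of the neighbours in that order, only hyperplastic skin and papilloma differed by the test.

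No difference in the proportions of the members to each other passed the test. Reads of miR-145-5p outnumbered those of miR-143-3p in every library, on average by 3.13 ± 0.59 times in healthy skin, 3.29 ± 1.13 in hyperplastic skin, 3.22 ± 0.22 in papillomas and 4.16 ± 1.81 in cSCC (SD, n = 5 each). These are ratios of reads. How efficiently each sequence enters a library differs between miRNAs, so they are not ratios of molecules. The ratio of miR-143-3p to miR-145-5p passed in none of the 6 comparisons. Its log2 difference was -0.06 ± 0.13 (SE) for papilloma and -0.34 ± 0.28 for cSCC against healthy skin (exact permutation test, two-sided, p = 0.651 and 0.294). Adjusted over the 42 comparisons of 7 ratios these were 0.828 and 0.587, and the smallest p that 5 against 5 libraries allow is 0.00794.

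No difference in arm use passed either. miR-145-5p outnumbered miR-145-3p by 723 ± 106 times in healthy skin, 649 ± 314 in hyperplastic skin, 657 ± 224 in papillomas and 754 ± 346 in cSCC. miR-143-3p outnumbered miR-143-5p by 643 ± 211 times in healthy skin, 828 ± 743 in hyperplastic skin, 433 ± 285 in papillomas and 462 ± 83.5 in cSCC (SD, n = 5 each). The largest shift against healthy skin was in papillomas, where miR-143-5p relative to miR-143-3p had a log2 difference of 0.71 ± 0.40 (exact permutation p = 0.111, adjusted p = 0.259). The papillomas held 15 to 49 counts of miR-143-5p and the cSCC libraries 11 to 35.

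Over the 20 libraries the log2 CPM of miR-145-5p and miR-143-3p had a Pearson r of 0.94 (Spearman rho 0.96, and Pearson 0.93 without healthy 5 and 7, the libraries farthest from the median of miR-145-5p). This is a description, since the groups differ in level and the libraries share scaling factors. After each group's mean was subtracted the r was 0.68. Departures from the common line were few. Hyperplastic 8 had 62540 CPM of miR-145-5p but 11780 of miR-143-3p, and cSCC 2 had 12200 CPM of miR-145-5p with 1700 of miR-143-3p.

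**Figure D3:**
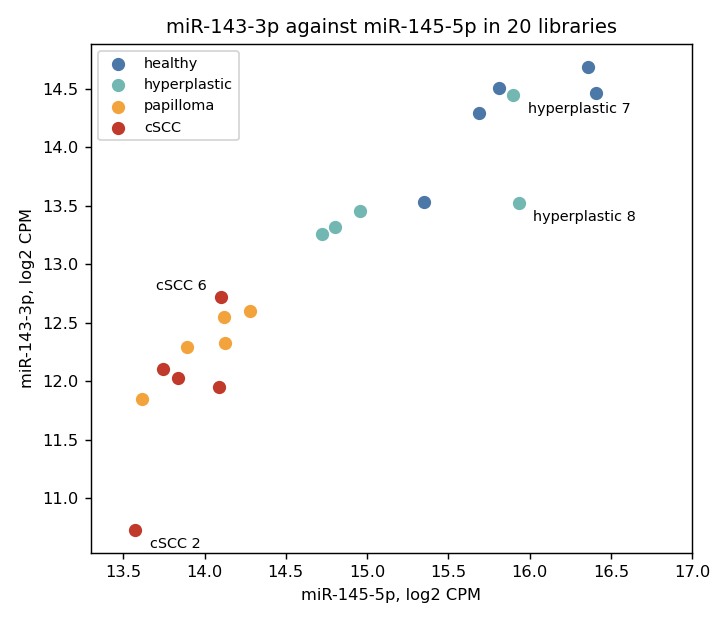
Each point is a library, with miR-145-5p on the horizontal and miR-143-3p on the vertical axis, both in log2 CPM and coloured by group. The 10 tumour libraries occupy the lower left, the healthy libraries lie above and to the right of them, and hyperplastic 8 and cSCC 2 lie below the line of the rest.

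To see whether the pair moved with other cell types of the biopsy, the counts of all 4 members were added and set against a leading miRNA of each, within each library, which needs no scaling between libraries. Relative to miR-205-5p, a miRNA of stratified epithelium, the sum was 0.251 ± 0.041 in papillomas and 0.738 ± 0.136 in healthy skin (SD, n = 5 each), without overlap. The log2 difference was -1.55 ± 0.16 (exact permutation p = 0.00794, the smallest possible, adjusted p = 0.037). In cSCC the ratio was 0.300 ± 0.119, against 0.738 ± 0.136 in healthy skin, again without overlap (-1.37 ± 0.29, p = 0.00794 by the exact permutation test, adjusted p = 0.037). Papillomas also lay below hyperplastic skin, at 0.514 ± 0.175, with no overlap (-0.99 ± 0.24, adjusted p = 0.037, exact permutation). cSCC overlapped with hyperplastic skin and did not pass against it (-0.81 ± 0.34, exact permutation p = 0.0635, adjusted p = 0.167). miR-205-5p itself had log2 fold changes of -0.36 ± 0.24 in papillomas and -0.69 ± 0.24 in cSCC against healthy skin (edgeR, adjusted p = 0.223 and 0.021). Among abundant miRNAs these were 0.28 and 0.033, and neither passed (adjusted p = 0.238 and 0.888).

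Relative to miR-126-3p, which is made from the endothelial gene Egfl7, the sum was lower in cSCC than in skin without a tumour. In cSCC there were 2.95 ± 0.79 reads of the pair per read of miR-126-3p, against 5.12 ± 0.78 in healthy skin, with no overlap (-0.83 ± 0.21, exact permutation p = 0.00794, adjusted p = 0.037). The cSCC ratio was also below the 6.33 ± 2.47 of hyperplastic skin (-1.07 ± 0.29, adjusted p = 0.037, exact permutation). In papillomas it was 4.62 ± 1.29, against 5.12 ± 0.78 in healthy skin (-0.17 ± 0.19, exact permutation p = 0.365, adjusted p = 0.6). Set against each other directly, cSCC and papilloma differed by -0.65 ± 0.24, which did not pass the adjustment (exact permutation p = 0.0238, adjusted p = 0.0769). miR-126-3p had log2 fold changes of -1.30 ± 0.32 in cSCC and -1.77 ± 0.33 in papillomas against healthy skin (edgeR, adjusted p = 0.00179 and 0.000197). Among abundant miRNAs the values were -0.58 in cSCC, which did not pass, and -1.13 in papillomas (adjusted p = 0.0603 and 0.00177). The other arm, miR-126-5p, had nearly equal falls of -1.08 in cSCC and -1.06 in papillomas (edgeR, adjusted p = 0.00105 and 0.00199). The pair was not set against that arm, so these ratios describe miR-126-3p only.

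Against miR-199a-3p, a miRNA of fibroblasts and other mesenchyme that can share reads with miR-199b-3p, no comparison passed. The ratio was 13.83 ± 3.46 in healthy skin, 8.46 ± 1.20 in hyperplastic skin, 8.86 ± 2.61 in papillomas and 7.63 ± 2.77 in cSCC (SD, n = 5 each). Against healthy skin the log2 difference was -0.68 ± 0.20 in hyperplastic skin (exact permutation p = 0.0238, adjusted p = 0.0769) and -0.65 ± 0.26 in papillomas (p = 0.0238, adjusted p = 0.0769, exact permutation). In cSCC it was -0.88 ± 0.27 (exact permutation p = 0.0159, adjusted p = 0.0667). miR-199a-3p itself had log2 fold changes of -1.30 in papillomas and -1.18 in cSCC against healthy skin (edgeR, adjusted p = 0.00234 and 0.00328). miR-214-3p, also taken as a marker of mesenchyme, did not pass (-0.31 and -0.08, edgeR, adjusted p = 0.351 and 0.812). The pair was not set against miR-214-3p. Striated muscle miR-133a-3p, abundant in the thin muscle sheet under mouse skin, was set against the pair as well. Per read of it there were 8.02 ± 5.28 reads of the pair in healthy skin, 6.43 ± 2.41 in hyperplastic skin, 15.51 ± 3.41 in papillomas and 35.88 ± 14.75 in cSCC. cSCC differed from healthy skin by 2.30 ± 0.45, from hyperplastic skin by 2.48 ± 0.33 and from papilloma by 1.16 ± 0.27 (log2, each adjusted p = 0.037, exact permutation). Papillomas differed from hyperplastic skin by 1.32 ± 0.28 (adjusted p = 0.037, exact permutation) and not by the test from healthy skin (1.14 ± 0.42, adjusted p = 0.119).

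**Figure D4:**
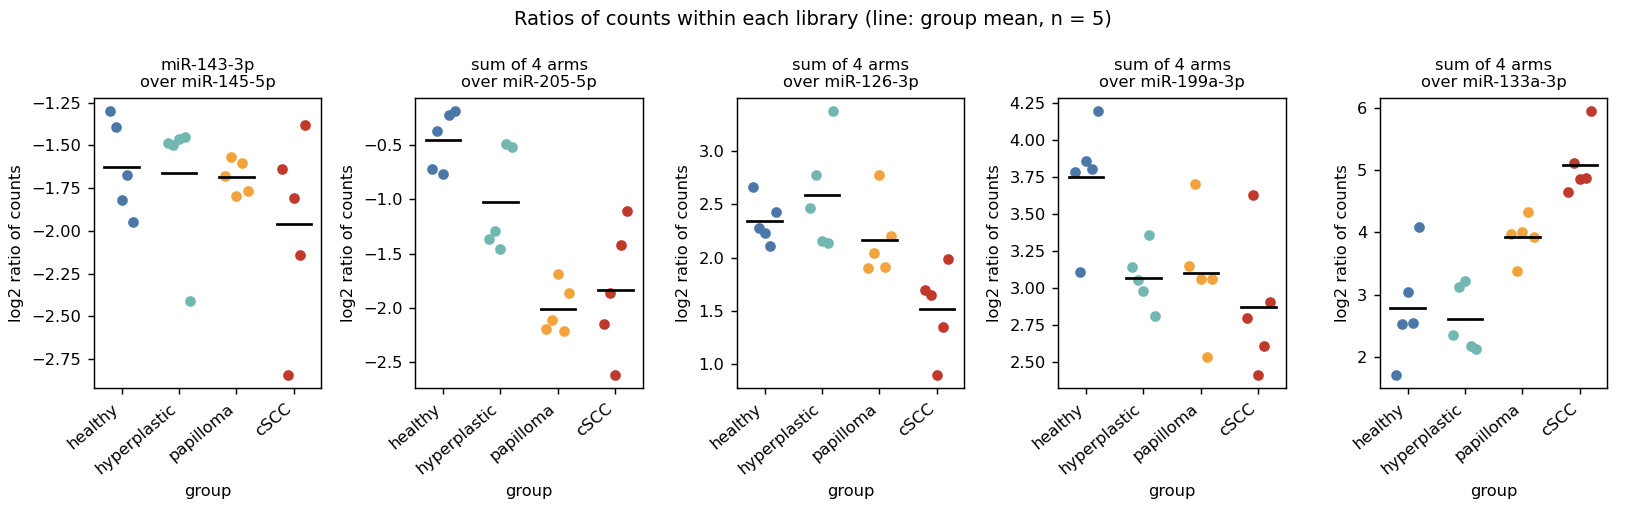
Log2 ratio of counts within each library (vertical axes) for miR-143-3p over miR-145-5p and for the sum of the 4 arms over miR-205-5p, miR-126-3p, miR-199a-3p and miR-133a-3p, with the 5 libraries of each group as points and the group mean as a line. Against miR-205-5p both tumour groups lie below healthy skin, against miR-126-3p cSCC does, and against miR-133a-3p cSCC lies above every other group.

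The marker lists of these cell types follow, and their part in the falls of the pair was not tested. Arms whose names carry a locus number, such as miR-125b-1-3p and miR-1a-1-5p, are not in the lists. Their counts against healthy skin stand beside those of all 850 miRNAs, of which 21.3% were lower and 26.2% higher in cSCC, and 20.7% lower and 24% higher in papillomas. Of the 293 abundant miRNAs 25.9% were lower and 36.5% higher in cSCC, and 20.5% lower and 29% higher in papillomas. In a whole biopsy fewer cells of a type and less of a miRNA per cell cannot be told apart. The 9 tested striated muscle members summed to 19490 to 78100 CPM in healthy skin, 16590 to 50590 in hyperplastic skin, 1815 to 9276 in papillomas and 1592 to 3673 in cSCC. Both arms of endothelial miR-126 summed to 23610 to 43320 CPM in healthy skin, 14830 to 37120 in hyperplastic skin, 9862 to 15940 in papillomas and 8811 to 19040 in cSCC. The 20 fibroblast and mesenchyme members summed to 275400 to 483600 CPM in healthy skin, 199900 to 406400 in hyperplastic skin, 93870 to 164100 in papillomas and 125900 to 240700 in cSCC. Of these 20, 16 fell in cSCC and 17 in papillomas and 0 rose, with medians of -1.32 and -1.35, where all 850 miRNAs had medians of 0.35 and 0.40. In the fit of abundant miRNAs 9 of 18 fell and 1 rose in cSCC, and 10 fell and 0 rose in papillomas. Of the arms of miR-126, both fell in either tumour in the fit of all miRNAs, and among abundant ones 0 did in cSCC and 1 in papillomas. Of the striated muscle members 6 fell and 2 rose in either tumour, and all 5 in the fit of abundant miRNAs fell.

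For keratinocyte members the counts in each direction differed between the fits, which differ in scaling and in the miRNAs they hold. In the fit of all miRNAs 5 of 13 fell and 0 rose in cSCC, and 3 fell and 0 rose in papillomas, with medians of -0.52 and -0.24. The 3 of 13 in papillomas are near the share of all miRNAs called lower. Among abundant miRNAs 3 of 12 fell and 3 rose in cSCC, and 0 fell and 2 rose in papillomas. miR-203-3p, a brake on p63 as keratinocytes leave the basal layer, fell in cSCC (-1.83, adjusted p = 4.3e-06; -1.07 among abundant miRNAs, adjusted p = 0.000987). The list summed to 157000 to 254100 CPM in healthy skin, 176400 to 224000 in hyperplastic skin, 108600 to 212400 in papillomas and 76980 to 145300 in cSCC. The most abundant leukocyte member was miR-223-3p of neutrophils and other myeloid cells (1.89 in cSCC, adjusted p = 0.000173). The next by level, miR-150-5p, went the other way in cSCC (-2.15, adjusted p = 0.000108). The leukocyte list summed to 21150 to 39010 CPM in healthy skin, 12150 to 25100 in hyperplastic skin, 16850 to 62000 in papillomas and 49330 to 112300 in cSCC. Of 14, 1 was higher and 5 lower in papillomas than in healthy skin, and 2 higher and 3 lower in cSCC, where 3 of 14 is near the share of all miRNAs called lower. Among the 8 abundant members 2 were higher and 0 lower in papillomas, and 3 higher and 3 lower in cSCC. The list's median in papillomas was negative in both fits (-0.62 and -0.09). In cSCC it was -0.24 in the fit of all miRNAs and 0.52 among abundant ones. The 5 red cell members summed to 2265 to 7029 CPM in healthy skin, 1945 to 12740 in hyperplastic skin, 2743 to 11020 in papillomas and 2907 to 7935 in cSCC, with 2 lower in cSCC, 1 lower in papillomas and 0 higher in the fit of all miRNAs. Among abundant ones 0 of 3 fell in either tumour, with 1 higher in cSCC and 2 in papillomas.

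Other miRNAs that published work ties to smooth muscle growth or contractile state were read out next to the pair. Of 20 tested arms, 13 fell and 3 rose in papillomas and 11 fell and 4 rose in cSCC against healthy skin, with medians of -0.96 and -0.92. Over all 850 miRNAs the medians were 0.40 and 0.35, and the shares called lower and higher were those given above. Among abundant miRNAs 6 fell and 2 rose of 17 in papillomas (median -0.38), and 7 fell and 6 rose in cSCC (median -0.35). None passed in hyperplastic skin (median -0.17). By summed level the 20 arms did not fall in the tumours. They held 156400 to 247000 CPM in healthy skin, 148200 to 208200 in hyperplastic skin, 135500 to 258400 in papillomas and 205500 to 382900 in cSCC. Their most abundant member was miR-21-5p. Arms with a locus number, such as miR-24-2-5p and miR-1a-1-5p, are left out here too. Both arms of miR-21, which supports smooth muscle growth and acts in many other cells, rose (miR-21-5p by 2.06 in papillomas and 2.81 in cSCC, log2, adjusted p = 7.85e-05 and 6.26e-07), also among abundant miRNAs (2.67 and 3.49). miR-24-3p, which in human smooth muscle lowers Trb3, had values of -0.60 and -1.06 in the fit of all miRNAs (adjusted p = 0.033 and 0.000501). Among abundant ones its papilloma call ended and the sign turned (0.037, adjusted p = 0.832), and its cSCC value was -0.35 (adjusted p = 0.0414). miR-29b-3p, a brake on collagen and elastin transcripts, fell in papillomas in both fits (-1.55 and, among abundant miRNAs, -0.89, adjusted p = 0.00025 and 0.00515). Its cSCC call (-0.83, adjusted p = 0.0191) ended among abundant miRNAs (-0.12, adjusted p = 0.674). miR-26a-5p, which restrains Smad1 in smooth muscle and Ezh2 elsewhere, fell in both tumours (-1.86 and -2.31, adjusted p = 1.55e-05 and 7.26e-08), also among abundant miRNAs (-1.22 and -1.59). The relatives miR-221-3p and miR-222-3p, which lower the cell cycle inhibitor p27 in growing smooth muscle, were named after their values were seen. In papillomas they had -1.08 and -1.10 (adjusted p = 0.0237 and 0.0107), calls that ended among abundant miRNAs (-0.38 and -0.40, adjusted p = 0.396 and 0.304). In cSCC they had 0.55 and 0.50, which did not pass (adjusted p = 0.226 and 0.207), and among abundant miRNAs 1.26 and 1.23, which did (adjusted p = 0.00578 and 0.0022). miR-1a-3p and miR-133a-3p, shared with striated muscle and also under serum response factor, had log2 fold changes of -3.31 and -3.21 in papillomas (adjusted p = 4.1e-05 and 1.55e-05) and -4.08 and -4.57 in cSCC (adjusted p = 9.46e-07 and 4.29e-08).

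Among 291 other miRNAs of at least 50 CPM, those whose log2 CPM over the 20 libraries was most like that of miR-145-5p were miR-328-3p (Pearson r = 0.98), miR-125a-5p (0.97), miR-26b-5p (0.96), miR-425-5p (0.96) and miR-26a-5p (0.95). After group means were subtracted these had r of 0.93, 0.92, 0.76, 0.82 and 0.72, while miR-143-3p had 0.68. miR-328-3p had a higher r with miR-145-5p than the cluster partner miR-143-3p, also within groups. It was picked as the highest of 291 in these same libraries, whereas the partner was fixed beforehand. By Spearman rho the values were close (0.962 for miR-328-3p and 0.955 for miR-143-3p). miR-328-3p ranked first under the other scaling and by rho as well. The other places were less stable: by rho miR-125a-5p ranked 17, and under the other scaling miR-425-5p ranked 22. Most like miR-143-3p were miR-101c (0.95), miR-30e-3p (0.94), miR-27b-3p (0.94), miR-101a-3p (0.94) and miR-30b-5p (0.94), with r of 0.77, 0.66, 0.85, 0.79 and 0.65 within groups. By rho miR-101c ranked 14 and miR-30e-3p 27, and under the other scaling miR-27b-3p ranked 16. Likeness of this kind is a description of libraries that share depth, scaling and tissue composition.

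Some of these neighbours are close to each other in sequence, so that they may not be separate lines of likeness, which was not tested. Of the 13 miRNAs looked up (these 10, miR-126-3p, miR-199a-3p and miR-205-5p), 10 matched a RefSeq entry by name (GRCm38.p6). The pairs at issue are printed 5′ to 3′ with the seed, bases 2 to 8, in capitals, followed by miR-125a-5p for contrast.
miR-26a-5p: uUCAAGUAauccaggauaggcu
miR-26b-5p: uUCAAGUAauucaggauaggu
miR-101a-3p: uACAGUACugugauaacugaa
miR-101c: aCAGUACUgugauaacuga
miR-125a-5p: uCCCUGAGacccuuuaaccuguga
miR-26a-5p and miR-26b-5p share their seed and differ at 2 of the first 21 bases. The whole of miR-101c, 19 bases, lies within miR-101a-3p from its base 2 on, so that its reads can be those of miR-101a-3p and its own level is uncertain. The seed of miR-125a-5p is shared with none of the other 4.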

How the data were processed

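Small RNA of 20 skin samples was sequenced on the SOLiD system after miRNeasy extraction and gel size selection, per the labels' protocols. The authors deposited whole-number counts of reads per feature and library, not normalized. The genome build is mm9, per the submitters' processing notes. Aligner, counter and handling of multi-mapping reads: not given in the sources used here. Columns were matched to samples by title, and the labels name no batch.

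The 1137 mature miRNAs were filtered with filterByExpr by group (at least 15 counts in all and a level equal to 10 counts at the median library), which left 850. They were scaled by TMM and fitted with edgeR 4.0.16 (R 4.3.3, limma 3.58.1) in 1 model of all 20 libraries. SEs derive from the F statistic. Ratios within a library, with 0.5 added to each count, were tested by exact permutation. Named miRNAs are the members, the denominators, the 5 most like each main arm and abundant list members. miR-221-3p and miR-222-3p were added after their values were seen. The scripts were tested on simulated data. Alternatives were other scalings and filters, a replicate block, DESeq2 1.42.0, only the groups compared, all features, and leaving out each library. The members, lists and tests were chosen with earlier results of these data known.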

Additional observations from a re-analysis of the deposited data

Results flagged for a closer look

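Among 44 sets of 5 values (4 members and 7 ratios in 4 groups), 4 held a library whose gap to its nearest neighbour was above Dixon's 95% critical value of 0.71 of the range. Chance flags about 1 in 20 sets. Hyperplastic 7 had 22330 CPM of miR-143-3p, with the other hyperplastic libraries at 9790 to 11780. Hyperplastic 8 had 0.188 reads of miR-143-3p per read of miR-145-5p, where the other 4 had 0.354 to 0.366. Papilloma 4 had 6.84 reads of the pair per read of miR-126-3p. cSCC 6 had 61.54 reads of the pair per read of miR-133a-3p, and also the group's highest miR-143-3p, miR-145-5p and miR-145-3p.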

How the results depend on the processing

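The falls of miR-145-5p and miR-143-3p in both tumours against healthy skin passed under all 10 alternatives and without any 1 library of the comparison, with sizes that followed the scaling. For miR-145-5p in papillomas they ran from -2.34 with no low-count filter to -0.997 with library sizes without the 5 most abundant miRNAs. The cause of the changed calls below was not tested. With those last library sizes miR-145-3p (-0.75) and miR-143-5p (-0.31) lost their calls in papillomas against healthy skin, miR-145-3p in papillomas against hyperplastic skin (-0.72) and miR-143-5p in cSCC against hyperplastic skin (-0.99). There miR-143-5p turned sign for papilloma against hyperplastic skin (0.029), and its adjusted p across the 4 groups was 0.0643. Factors from the abundant miRNAs ended the calls of miR-143-5p in papillomas against healthy skin (-0.59) and in cSCC against hyperplastic skin (-0.72), of miR-145-3p in papillomas (-0.88) and cSCC (-0.87) against hyperplastic skin, and of miR-143-5p across groups (adjusted p = 0.11). The abundant miRNAs alone ended those of miR-145-3p against hyperplastic skin too (-0.88 and -0.87). Total counts ended miR-143-5p in papillomas against healthy skin (-0.60) and in cSCC against hyperplastic skin (-1.15), and miR-145-3p in papillomas against hyperplastic skin (-0.99). All features ended miR-143-5p in papillomas against healthy skin (-1.03) and cSCC against hyperplastic skin (-1.06).

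For cSCC against papilloma, where nothing passed, miR-145-3p turned to 0.0034 with factors from the abundant miRNAs, 0.0032 with no filter, 0.0021 among abundant miRNAs and 0.048 with all features. Without 1 library, values ran from -0.54 to 0.16 for miR-145-3p and from -0.126 to 0.0426 for miR-145-5p there, from -1.90 to -1.11 for miR-145-3p in papillomas and from -1.87 to -1.07 for miR-143-5p in cSCC against hyperplastic skin. With 4 against 5 libraries the ratios cannot pass the adjustment (smallest p 0.0159), so only their values were compared, and none moved by more than the spread between libraries.

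After group means were subtracted, 7 of 17 pairs of same-numbered libraries correlated above 0.1 (r from -0.226 to 0.414). Of 19 libraries, 3 correlated best with their own number. Pairs of unlike number were not summarised beside them, so these values cannot decide whether the number pairs the samples. The labels name no pairing, and the number is not taken as one. With the replicate block miR-145-5p (-0.85, adjusted p = 0.0559) and miR-145-3p (-0.98) in papillomas, and miR-145-3p (-1.09) and miR-143-5p (-1.06) in cSCC, had no call against hyperplastic skin.

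The number of miRNAs called lower, 176 in papillomas against healthy skin, was 73 with factors from the abundant miRNAs, 74 with total counts, 43 without the top 5 and 60 among the abundant. For cSCC against healthy skin, 181 became 102, 118 without the top 5, 76 among the abundant and 298 with all features. The 0 in hyperplastic skin became 1 feature with all features. For cSCC against papilloma, 40 became 77 with total counts, 101 without the top 5, 21 with no filter, 26 with all features and 14 to 26 without 1 library. For papilloma against hyperplastic skin, 145 became 48 with abundant factors, 58 with total counts, 38 without the top 5, 41 among the abundant, 44 with the replicate block and 87 to 168 without 1 library (87 without hyperplastic 7). For cSCC against hyperplastic skin, 174 became 82, 68 among the abundant, 96 with the replicate block and 308 with all features. Across the 4 groups, 476 became 186 among the abundant, 304 with the replicate block and 821 with all features.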
